A study of Mus musculus with 5 samples.

Results

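Pancreatic polypeptide (PP) cells are the islet endocrine cells that make the hormone encoded by Ppy. The 6 genes described here, Tspan8, Folr1, Calb1, Fxyd3, Nkx6-3 and Spon2, are 6 of the 32285 genes in each count matrix, found by symbol. They were proposed as PP cell markers from these same data, chosen for a high level in PP cells and above all for PP cells against glucagon-making alpha cells. Differences between cell types are therefore given as a description without a test, and diet, which played no part in the choice, is tested.

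The data were single-cell 3 prime transcript counts of hand-picked pancreatic islets from 5 NOD.Cg-Prkdcscid/J mice, also called NOD.SCID (a scid mutation in Prkdc), which lack mature T and B cells. HC mice 1 and 2, fed the diet labelled 20% HC, were 7 and 9 weeks old, and chow mice 1, 2 and 3 were 8, 10 and 10 weeks old, per the age labels. The series design gives 8 to 10 weeks, which the label of HC mouse 1 does not meet. Each mouse was 1 library, and the mouse is the replicate. The library names of HC mouse 1 and chow mouse 1 began with FUN and those of HC mouse 2 and chow mice 2 and 3 with SKY, a prefix whose meaning is not given. The title of HC mouse 2 says chow, whereas its diet label says HC. The diet label was followed, and the diet comparisons within each cell type and of the PP share were repeated with it as chow.

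The 5 libraries held 28722244 to 39624978 transcript counts (UMIs, unique molecular identifiers). After filtering, 22744 cells remained, 4819 and 4408 in the HC mice and 3651, 5122 and 4744 in the chow mice, with median UMIs per cell of 5146 to 6958.5. Between libraries, 64 barcodes of kept cells were shared, 3 of them barcodes of PP cells. The doublet caller marked 14 cells, 0.0615%, which means that it did not work, so droplets with the RNA of 2 cells are still present.

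PP cells hold one of the smallest endocrine populations of the islet, sit mostly in the part of the pancreas derived from the ventral bud, and share their developmental origin with alpha cells closely enough that the hormones of both are sometimes found in the same cell. Pancreatic polypeptide acts on appetite and on the secretions of gut and exocrine pancreas. Each of the 6 genes has another known place of expression: epithelium for Tspan8 and Fxyd3, kidney and choroid plexus for Folr1, neurons and kidney for Calb1, the stomach antrum for Nkx6-3, and extracellular matrix of several tissues for Spon2.

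On mm10 (GRCm38), by the GENCODE M21 annotation, the 6 protein-coding genes lie on 5 chromosomes. Tspan8 (ENSMUSG00000034127) encodes a tetraspanin, a cell surface protein that organises membrane complexes, and spans chr10:115816832-115849893 on the plus strand. Folr1 (ENSMUSG00000001827) encodes the membrane-anchored folate receptor alpha and spans chr7:101858331-101870788 on the minus strand. Calb1 (ENSMUSG00000028222) encodes calbindin, a calcium buffer of the cytosol, and spans chr4:15881264-15908064 on the plus strand. Fxyd3 (ENSMUSG00000057092) encodes a small regulator of the sodium pump and spans chr7:31068172-31076704 on the minus strand. Nkx6-3 (ENSMUSG00000063672) encodes a homeodomain transcription factor and spans chr8:23153269-23158948 on the plus strand. Spon2 (ENSMUSG00000037379) encodes a secreted matrix protein, spondin 2, and spans chr5:33198184-33218455 on the minus strand.

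Tspan8, Folr1 and Fxyd3 each overlap a gene on the opposite strand, 4930422I22Rik, Anapc15 and Lgi4. These partners had 0, 9 and 1 UMIs in all PP cells. Whether strand was used in counting is not given in the sources used here.

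Promoter sequence from RefSeq (GRCm38.p6) was matched for 2 of the 6 genes, Tspan8 and Fxyd3, which had the largest mean log2 differences of PP over alpha cells on CPM + 1. They are shown as the DNA just before the RefSeq start, cut where an annotated exon begins, and lie at chr10:115817034-115817270 (plus strand, 237 bases) and chr7:31076705-31076947 (minus strand, 243 bases). The Tspan8 window lies inside the gene as drawn by GENCODE M21, between annotated exons and downstream of the first annotated start. Capitals mark matches, on either strand, to TAAT, a core recognised by many homeodomain factors.
Tspan8: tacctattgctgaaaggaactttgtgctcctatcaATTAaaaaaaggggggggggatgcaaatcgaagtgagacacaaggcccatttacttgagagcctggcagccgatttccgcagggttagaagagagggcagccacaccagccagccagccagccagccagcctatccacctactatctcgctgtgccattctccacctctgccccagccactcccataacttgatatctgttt
Fxyd3: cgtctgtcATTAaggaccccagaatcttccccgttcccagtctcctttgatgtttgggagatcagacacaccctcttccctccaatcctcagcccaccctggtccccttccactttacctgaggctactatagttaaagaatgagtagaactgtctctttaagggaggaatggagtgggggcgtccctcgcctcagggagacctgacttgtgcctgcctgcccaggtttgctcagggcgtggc
Each window held 1 TAAT match. Of all 32544 RefSeq promoter windows cut to the same length, 53.9% held at least 1 match at 237 bases and 54.3% at 243 bases, so the match is common. The forkhead motif TGTTTAC, which does not overlap TAAT, was in neither window and in 3.02% and 3.1% of all windows of those lengths.

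PP cells were taken by hormone alone, without use of the 6 genes. Clusters whose leading genes were not mainly endocrine markers were held out. Some of these were rich in insulin transcripts, with medians of 44.7% of UMIs in the cycling, 56.4% in the Ctrb1-led, 49.0% in the Rbp7-led and 47.1% in the Rbp2-led cluster. Any cell outside the held-out clusters was called PP, alpha, delta or beta by its leading hormone transcript (Ppy, Gcg, Sst, or Ins1 with Ins2). That transcript had to make up at least 2% of the cell's UMIs, with each other hormone below 50% of the leading one. This gave 414 PP cells, 5022 alpha cells, 2275 delta cells (which make somatostatin) and 11888 beta cells (which make insulin), with median depths of 5108, 3905, 2341 and 8244 UMIs. Another 99 cells carried Gcg and Ppy at comparable levels and were kept apart. Of the 474 Ppy-leading cells, 61 of those inside the gate had a second hormone at 20 to 50% of Ppy and 60 outside it had one at 50 to 100%. Only 3 of the 414 PP cells had a Ppy share of 2 to 5%, so the lower bound of the gate cut through few cells.

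Ppy made up 32.1% and 45.3% of the UMIs in PP cells of HC mice 1 and 2 and 28.4%, 35.9% and 41.7% in those of chow mice 1, 2 and 3. Pyy, the related hormone peptide YY, averaged 127100 CPM (counts scaled to a total of 1000000) in PP cells against 8028 CPM in alpha cells. Of the other PP markers listed, Vsig1 averaged 9.08 CPM in PP cells and 0 in alpha cells. Etv1 stood at 251 CPM in PP against 277 CPM in alpha cells and Sertm1 at 2.31 CPM in PP against 3.54 CPM in alpha cells, neither of them higher in PP cells, and Aqp3 was at 0 in both. Among 10 alpha markers, 8 were lower in PP cells of all 5 mice, among them Irx1 (11.01 CPM in PP against 122 CPM in alpha cells) and Ttr (2695 CPM in PP against 17010 CPM in alpha cells), while Gc was higher in PP cells of 4 of the 5 mice. Clustering without the 6 genes put 292 of the PP cells in a Ppy-led cluster of 786 cells, 71 in alpha-like and 50 in delta-like clusters and 1 in a beta-like cluster. That cluster also held 151 alpha-gated cells and too few of the PP markers lead it for a name, so the gate defines PP cells throughout.

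All 6 genes had a higher mean level in PP cells than in alpha, delta or beta cells. Tspan8, Folr1 and Calb1 had their highest level of any cell type in PP cells, in each case with a lowest mouse above the highest mouse of the next type, delta. Fxyd3 was higher still in duct cells, and the level of Spon2 in PP cells overlapped that in stromal cells. Nkx6-3 was the most sparsely counted, with 38 UMIs in all PP cells. Levels are CPM of the UMIs summed over the cells of a type in a mouse, and 3 prime counts of different genes are not compared with each other.

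**Figure D1:**
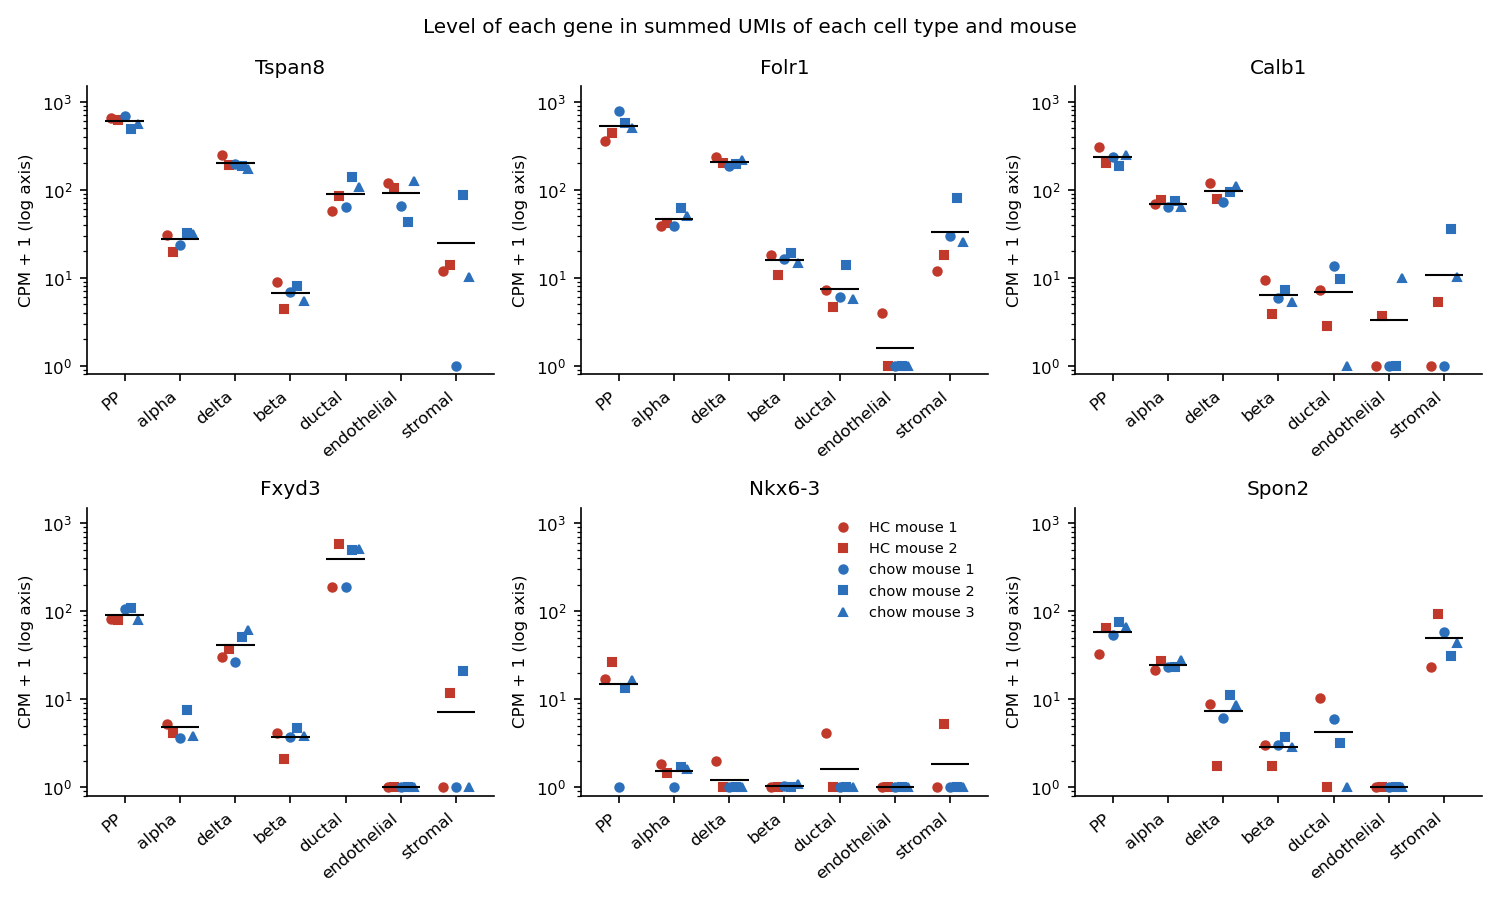
Level of each of the 6 genes in the summed UMIs of 7 cell types, as CPM + 1 on a log axis, with HC mice in red, chow mice in blue and the mean of 5 mice as a black line. PP cells lead for Tspan8, Folr1, Calb1 and Nkx6-3, duct cells lead for Fxyd3 (mean 390 against 89.8 CPM in PP cells), and PP and stromal cells overlap for Spon2.

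Tspan8 had 656 and 617 CPM in PP cells of HC mice 1 and 2 and 676, 481 and 551 CPM in those of chow mice 1, 2 and 3. In alpha cells it had 29.2 and 18.6 CPM in the HC mice and 22.3, 31.5 and 30.6 CPM in the chow mice. The lowest PP level was above the highest alpha level by more than the whole spread of either type. The means were 596 ± 80.1 CPM in PP cells, 26.4 ± 5.7 CPM in alpha cells, 197 ± 30.03 CPM in delta cells and 5.74 ± 1.86 CPM in beta cells (SD, n = 5 mice). After PP and delta cells came endothelial cells (90.6 ± 35.9 CPM) and duct cells (88.8 ± 33.3 CPM), whose ranges overlapped each other. Both lay above alpha cells in every mouse.

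Folr1 had 352 and 433 CPM in PP cells of HC mice 1 and 2 and 780.5, 563 and 503 CPM in those of chow mice 1, 2 and 3. The alpha cells of the same mice had 37.7, 41.3, 37.8, 60.1 and 49.8 CPM. Every PP value was thus above every alpha value, and the PP cells of chow mouse 1, which number 8, gave the top value. Means were 526 ± 162 CPM in PP, 45.4 ± 9.63 CPM in alpha, 206 ± 18.1 CPM in delta and 14.8 ± 3.25 CPM in beta cells (SD, n = 5). Folr1 was nearly missing from endothelial cells, with 1 UMI in 818 cells.

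Calb1 had 304 and 201 CPM in PP cells of HC mice 1 and 2 and 234, 186 and 249 CPM in those of chow mice 1, 2 and 3. In the alpha cells it ran between 61.8 and 74.5 CPM, a narrow range that did not reach the lowest PP value. Means were 235 ± 46.1 CPM in PP, 67.8 ± 5.71 CPM in alpha, 94.3 ± 20.2 CPM in delta and 5.36 ± 2.14 CPM in beta cells (SD, n = 5). The ranges of delta and alpha cells overlapped, and both lay above that of beta cells.

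Fxyd3 had 80.0 and 79.0 CPM in PP cells of HC mice 1 and 2 and 104, 108 and 77.9 CPM in those of chow mice 1, 2 and 3. The alpha cells of the same mice had 4.3, 3.09, 2.66, 6.5 and 2.84 CPM. Duct cells, the epithelium that lines the pancreatic ducts, had the top level, 189 and 572 CPM in HC mice and 187, 494 and 509 CPM in chow mice. The duct level in the lowest mouse was above the highest PP value, 108 CPM. Means were 89.8 ± 14.9 CPM in PP, 3.88 ± 1.6 CPM in alpha, 39.95 ± 14.4 CPM in delta and 2.7 ± 0.971 CPM in beta cells (SD, n = 5). The 10 ductal markers summed to 1040 to 1410 CPM in PP cells of the 5 mice, against 642 to 791 CPM in alpha cells, 2060 to 2170 CPM in delta cells and 21500 to 43100 CPM in duct cells. Only Cftr of those markers was at 0 in PP cells, and Clu, one of the 10, was itself among the 10 non-hormone genes with the largest PP over alpha difference. The part of duct RNA in the Fxyd3 level of PP cells was not tested.

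Nkx6-3 was counted in 33 of the 414 PP cells. PP cells of HC mice 1 and 2 had 1 and 10 UMIs (16.0 and 25.5 CPM), and those of chow mice 1, 2 and 3 had 0, 13 and 14 UMIs (0, 12.3 and 15.6 CPM). The count of 0 in chow mouse 1 allows up to 78.0 CPM, since its 8 PP cells held 38439 UMIs. Over all mice there were 38 UMIs in PP, 12 in alpha, 1 in delta and 3 in beta cells. The PP to alpha ratio of the summed counts was 28.2, with an exact 95% interval of 14.4 to 59.3 that covers counting error only. PP cells were 1.82% of all kept cells and held 58.5% of the 65 Nkx6-3 UMIs.

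Spon2 had 32.0 and 63.7 CPM in PP cells of HC mice 1 and 2 and 52.0, 73.9 and 64.6 CPM in those of chow mice 1, 2 and 3. The first value of each diet rests on 2 UMIs. The alpha cells of the same mice had 20.3, 25.9, 22.04, 22.4 and 26.8 CPM, below every PP value. Stromal cells had 22.02 and 92.2 CPM in HC mice and 57.3, 29.9 and 42.4 CPM in chow mice, which overlaps the PP range in both directions. Insulin transcripts made up 19.2 to 36.3% of the UMIs in stromal cells of the 5 mice. Their part in the stromal Spon2 level was not tested. The means were 57.2 ± 16.1 CPM in PP, 48.8 ± 27.7 CPM in stromal, 23.5 ± 2.74 CPM in alpha, 6.33 ± 3.58 CPM in delta and 1.89 ± 0.734 CPM in beta cells (SD, n = 5). The 8 stromal markers summed to 0 to 14.2 CPM in PP cells of the 5 mice, against 7410 to 15700 CPM in stromal cells, and Col1a1, Col3a1, Pdgfrb, Acta2 and Lum were at 0 in PP cells.

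Within a mouse, the log2 difference of PP over alpha cells (1 CPM added to both) was 4.46 ± 0.47 for Tspan8, 4.26 ± 0.39 for Fxyd3 and 3.48 ± 0.48 for Folr1 (SD, n = 5). It was 1.76 ± 0.36 for Calb1 and 1.20 ± 0.37 for Spon2. These 5 genes were higher in PP cells of every mouse. Nkx6-3 had 2.74 ± 1.60, higher in 4 of 5 mice, with chow mouse 1 at 0 UMIs in both cell types, and 3.42 without that mouse. Of 7296 genes with a mean of at least 10 CPM in either cell type, 20, or 0.274%, differed by at least 2 on this scale and were higher in PP cells of all 5 mice. Tspan8, Fxyd3 and Folr1 are among those 20, which the choice of the genes had fixed. The added 1 CPM understates the difference for low genes such as Nkx6-3.

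**Figure D2:**
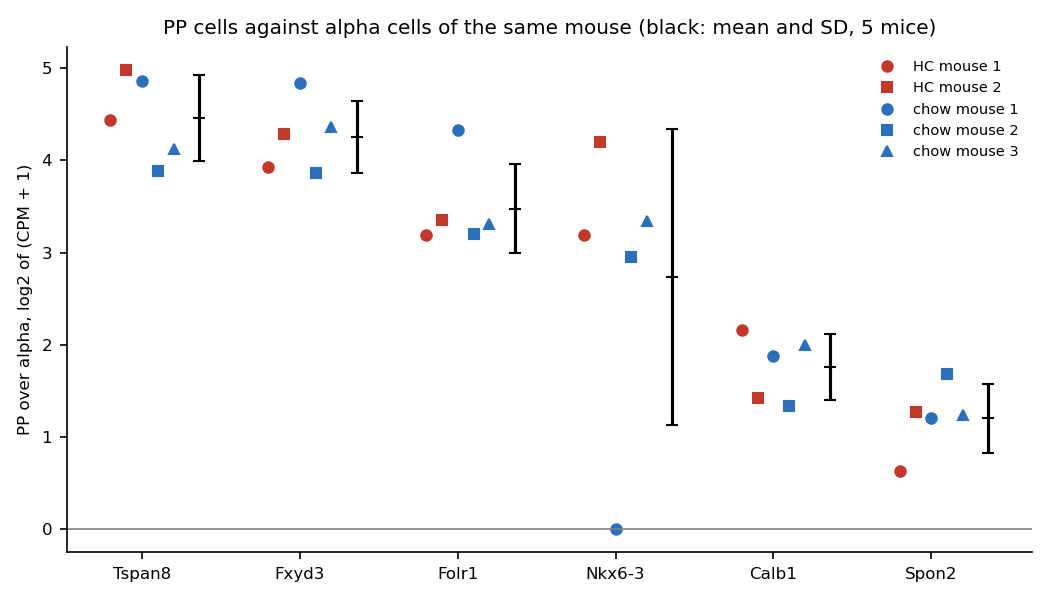
Log2 of PP over alpha cells of the same mouse, on CPM + 1, for the 6 genes, with 1 point per mouse and the mean and SD of 5 mice in black. Tspan8, Fxyd3 and Folr1 lie between 3.19 and 4.98 in every mouse, Calb1 and Spon2 between 0.63 and 2.16, and Nkx6-3 is at 0 in chow mouse 1, where neither cell type had a UMI.

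The size of these differences depended on which cells were set against each other. With whole clusters in place of the hormone gate, the PP set was the Ppy-led cluster. Of its 786 cells, 292 were gated PP cells and 151 were alpha-gated cells, so it is a mixed set. The mean difference was then 2.45 for Tspan8, 2.75 for Fxyd3, 1.66 for Folr1 and 0.18 for Calb1. For Spon2 it was -0.05, the opposite sign. Calb1 then had the opposite sign in HC mouse 1 (-0.33) and chow mouse 1 (-0.96). With a gate that allowed other hormones only up to 20% of Ppy, Tspan8 stood at 4.99 and Fxyd3 at 5.00, and Spon2 at 0.29 ± 2.68. That Spon2 mean rests on HC mouse 1, whose 5 PP cells held 0 Spon2 UMIs, and the other 4 mice lay between 1.13 and 1.76. Leaving out any 1 mouse kept Tspan8 within 4.33 to 4.60, Folr1 within 3.27 to 3.55 and Spon2 within 1.08 to 1.35.

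Among PP cells themselves, the 292 in the Ppy-led cluster had 561 CPM of Tspan8, 506 CPM of Folr1 and 94.5 CPM of Fxyd3, in cells summed over mice. The 67 PP cells in the largest alpha-like cluster had 477, 535 and 50.4 CPM of the same genes, and the 44 in the larger delta-like cluster had 454, 573 and 116 CPM. Gcg made up 1.15%, 3.15% and 1.8% of the UMIs in these sets, and Sst 0.116%, 0.033% and 4.69%. The part of delta cell RNA in the values of the third set was not tested.

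Summed over mice, the 99 cells with both Gcg and Ppy had 292 CPM of Tspan8, 363 CPM of Folr1, 164 CPM of Calb1, 54.5 CPM of Fxyd3, 5.59 CPM of Nkx6-3 and 43.3 CPM of Spon2. PP cells had 536, 518, 215, 91.5, 15.5 and 67.4 CPM of the same genes, and alpha cells 26.3, 44.5, 68.1, 3.95, 0.551 and 23.1 CPM. In these sums each of the 6 genes lay between the values of PP and alpha cells. As a mean over mice Spon2 did not, with 63.8 ± 38.0 CPM in the cells with both hormones and 57.2 ± 16.1 CPM in PP cells (SD, n = 5), where chow mouse 1 had 3 such cells and 1 Spon2 UMI. The median depth of these cells was 7009 UMIs, above the 5108 of PP cells and 3905 of alpha cells, and the part of droplets that caught a PP and an alpha cell together was not tested.

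In alpha cells, the low levels were uneven. The 3933 alpha cells of the main alpha-like cluster had 19.1 CPM of Tspan8 and 1.98 CPM of Fxyd3, whereas 277 alpha-gated cells in a delta-like cluster had 93.0 and 21.3 CPM, and 151 in the Ppy-led cluster had 66.4 and 9.95 CPM. Sst made up 5.79% of the UMIs of those in the delta-like cluster and 0.048% of those in the main cluster. Ppy made up 1.14% of the UMIs of those in the Ppy-led cluster and 0.286% of those in the main cluster. The part of RNA from other cells in these alpha values was not tested.

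Most PP cells carried a UMI of Tspan8 (87.2%, exact 95% interval 83.6 to 90.3), of Folr1 (81.4%) and of Calb1 (62.1%), and fewer one of Fxyd3 (34.3%), Spon2 (28.7%) or Nkx6-3 (7.97%). In beta cells, which were deeper, the shares were 3.45%, 10.6%, 4.27%, 2.02%, 1.77% and 0.0252% for Tspan8, Folr1, Calb1, Fxyd3, Spon2 and Nkx6-3. In alpha cells they were 7.75%, 15.01%, 23.0%, 1.43%, 9.24% and 0.219%. Intervals and shares count UMIs in droplets and include free RNA.

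After every cell was thinned to 2000 UMIs, 22.5% of 404 PP cells carried at least 3 of the 6 genes and 7.67% carried none. The share with at least 3 was 14.4% of 97 cells with Gcg and Ppy, 2.68% of 1568 delta cells, 0.404% of 4698 alpha cells and 0.0423% of 11830 beta cells. Thinning left out 10 PP, 2 Gcg and Ppy, 707 delta, 324 alpha and 58 beta cells that were shallower. By mouse, at least 3 genes were found in 30% and 20.6% of PP cells of HC mice 1 and 2 and in 42.9%, 19.0% and 25.3% of those of chow mice 1, 2 and 3, the FUN values from 10 and 7 cells. Alpha cells stayed between 0.132% and 0.564% in the same mice. None of the thinned PP cells carried 5 or 6 of the genes.

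**Figure D3:**
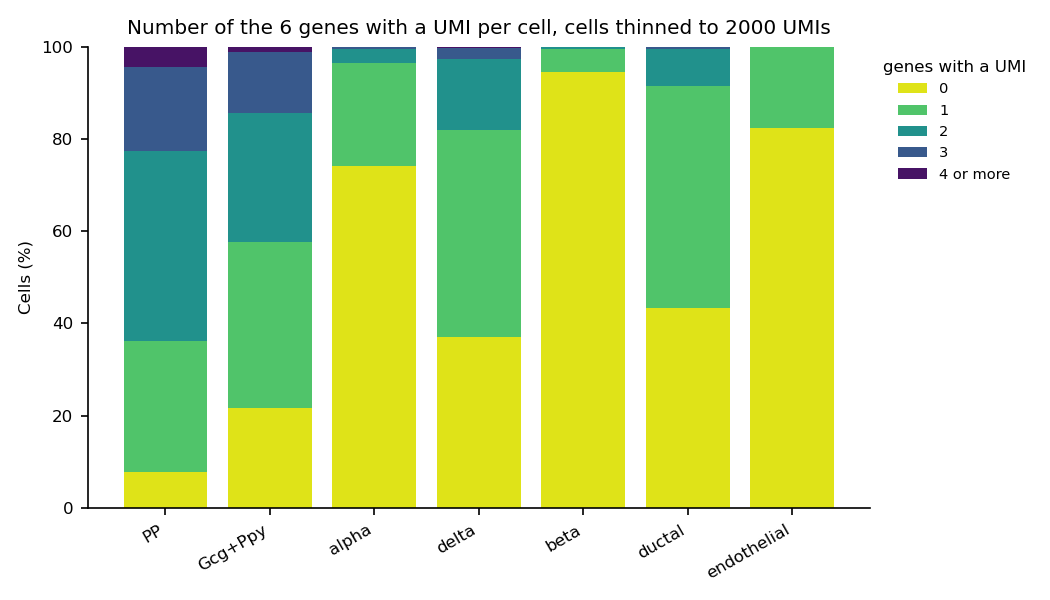
Share of cells with 0, 1, 2, 3, or 4 or more of the 6 genes, after each cell was thinned to 2000 UMIs, for 7 cell types. Cells with 3 or more make up 22.5% of PP cells, 14.4% of cells with Gcg and Ppy, and at most 2.68% of the other types drawn.

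From cell to cell within PP cells the 6 genes were only weakly correlated. Pearson's r over the 414 cells ran between -0.097 (Fxyd3 with Nkx6-3) and 0.118 (Folr1 with Fxyd3) for the 15 pairs, on counts that are mostly 0 or 1 for the sparse genes. With Ppy, the highest r was 0.164 (Tspan8). Values this weak in sparse counts from shared libraries are no finding.

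PP cells, 1.82% of kept cells and 1.59% of their UMIs, held 28.6% of the Tspan8 UMIs, 21.8% of the Folr1, 14.8% of the Calb1, 12.6% of the Fxyd3 and 14.9% of the Spon2 UMIs. Because alpha and beta cells are many, alpha cells held 41.7% of the Calb1 and 45.5% of the Spon2 UMIs in spite of their lower level. Duct cells held 44.1% of the Fxyd3 UMIs and beta cells 28.4% of the Folr1 UMIs. The ratio of Folr1 to Tspan8 UMIs was 0.966 in PP, 1.05 in delta, 1.69 in alpha, 2.58 in beta, 0.0747 in duct and 0.00813 in endothelial cells. The part of free RNA in the counts outside PP cells was not tested.

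The other genes with the largest mean log2 difference of PP over alpha, among genes other than hormones with at least 20 CPM in PP cells of every mouse, were Nrsn1, Cabp7, Cd9, Snhg18, S100a10, Kdelr3 and Clu. Nrsn1, a vesicle membrane protein of neurons, had 47.9 CPM in PP against 2.95 CPM in alpha cells (log2 difference 3.58). Cabp7, a calcium-binding protein, had 31.3 CPM in PP against 3.34 CPM in alpha cells (2.87), and Cd9, a tetraspanin like Tspan8, had 179 CPM in PP against 27.4 CPM in alpha cells (2.68). The long noncoding RNA Snhg18 had 77.5 CPM in PP against 11.9 CPM in alpha cells (2.55), S100a10, a partner of annexin A2, 65.4 CPM in PP against 11.04 CPM in alpha cells (2.48), and Kdelr3, a receptor that returns proteins to the endoplasmic reticulum, 41.0 CPM in PP against 8.76 CPM in alpha cells (2.10). Clu, a secreted chaperone, had 243 CPM in PP against 58.1 CPM in alpha cells (2.04), and its delta level was 724 CPM. Cabp7 and S100a10 were also higher in delta than in PP cells, with 90.7 and 173 CPM.

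Of 15 other genes listed for PP cells, 7 reached 20 CPM in PP or alpha cells, and 3 of these (Ppy, Pyy and Cd9) were higher in PP cells of all 5 mice and 0 lower. Ppy defines the gate, so its place in this count was fixed. Over all 4611 genes at that level, 5.2% were higher in PP cells of all 5 mice and 18.8% lower, and the median log2 difference was -0.28. Isl1, Meis2 and Etv1 differed by less than 0.2 on the log2 scale. Of 12 tetraspanins, 9 reached 20 CPM, and 4 were higher in all 5 mice: Cd9, Cd63 (433 CPM in PP against 304 CPM in alpha cells), Tspan12 (31.8 CPM in PP against 13.8 CPM in alpha cells) and Tspan13 (173 CPM in PP against 81.6 CPM in alpha cells). Of 3 NKX factors, 2 reached it, and Nkx6-1, better known from beta cells, was higher in all 5 mice (35.7 CPM in PP against 9.67 CPM in alpha cells), while Nkx2-2 had 53.1 CPM in PP against 73.3 CPM in alpha cells. Of 6 other FXYD genes, only Fxyd6 reached it, with 50.02 CPM in PP against 69.9 CPM in alpha cells. None of 7 other folate genes, 2 calbindin relatives and 4 spondin relatives reached it.

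Across 57 sums of 13 cell types and mice with at least 20 cells each, and 10698 genes, the genes whose log2(CPM + 1) followed each of the 6 most closely differed between them. For Tspan8 they were Bambi (Pearson's r 0.87) and Tmbim4 (0.75), and for Folr1 Resp18 and Cltrn (0.84 each). For Calb1 they were Gria2 (0.88) and Hist3h2ba (0.87), for Fxyd3 Urah and Cldn3 (0.82 each), for Nkx6-3 Serpina7 (0.57) and Ppy (0.53), and for Spon2 Tmed3 (0.72) and Gpx3 (0.70). Among the 6, Folr1 and Calb1 were most alike (0.78) and Fxyd3 and Spon2 least (0.16). The sums share libraries and depth, so these values are a description.

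The share of PP cells was 0.207% and 1.54% of kept cells in HC mice 1 and 2 (10 and 68 cells) and 0.219%, 3.08% and 3.58% in chow mice 1, 2 and 3 (8, 158 and 170 cells). Both FUN mice, 1 of each diet, lay far below the 3 SKY mice. The whole Ppy-led cluster made up 2.24% and 3.02% of kept cells in HC mice 1 and 2. For chow mice 1, 2 and 3 the values were 0.904%, 5.49% and 4.87%. Only 4 of its 108 cells in HC mouse 1 and 4 of 33 in chow mouse 1 passed the PP gate. For HC mouse 2 it was 49 of 133, for chow mouse 2 101 of 281 and for chow mouse 3 134 of 231. Outside chow mouse 3 most of the cluster was thus other cells, so its percents do not order the mice by PP share. The means that follow are of the gated shares. The means were 0.875% ± 0.944 in HC mice (SD, n = 2), against 2.3% ± 1.82 for chow mice (SD, n = 3), a difference of -1.42 points with a two-sided exact permutation p of 0.3, where 10 splits allow no p below 0.1. Within the FUN libraries the difference was -0.0116 points and within the SKY libraries -1.79 points, with 1 HC mouse in each. By the age labels the FUN mice (7 and 8 weeks) were younger than the SKY mice (9 and 10 weeks). Within each prefix the HC mouse was the younger, so prefix, age and diet cannot be fully told apart. Islets were picked by hand, and what the picking, the prefix or age contributes to the share was not tested.

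**Figure D4:**
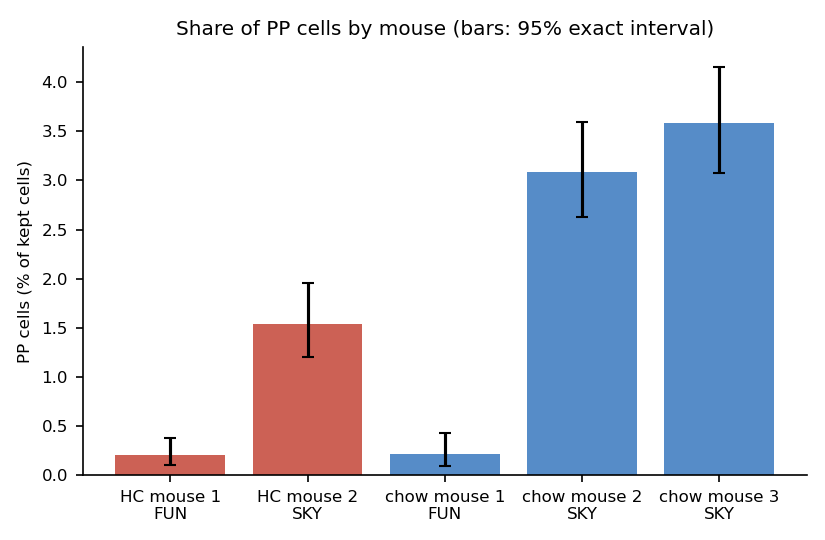
PP cells as a percent of kept cells in each mouse, HC mice in red and chow mice in blue, with exact 95% intervals for counting error and the library prefix under each bar. Both FUN mice are at about 0.2%, and the SKY mice are at 1.54% (HC) and 3.08% and 3.58% (chow).

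The diet comparison asks whether HC feeding moves the 6 genes within a cell type. None of them passed the test in any of the 5 cell types, by edgeR's quasi-likelihood test with Benjamini-Hochberg adjustment over all tested genes. In PP cells, 5 of the 6 genes were deep enough to test (Nkx6-3 was not) and 0 were called, against 0 of 3877 genes (0%) called in all. At an unadjusted p under 0.05 there were 109 such genes, and DESeq2 also called 0. On simulated PP sums of this size the test recovered 23% of 2-fold and 72% of 4-fold changes, so most 2-fold differences would be missed.

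**Figure D5:**
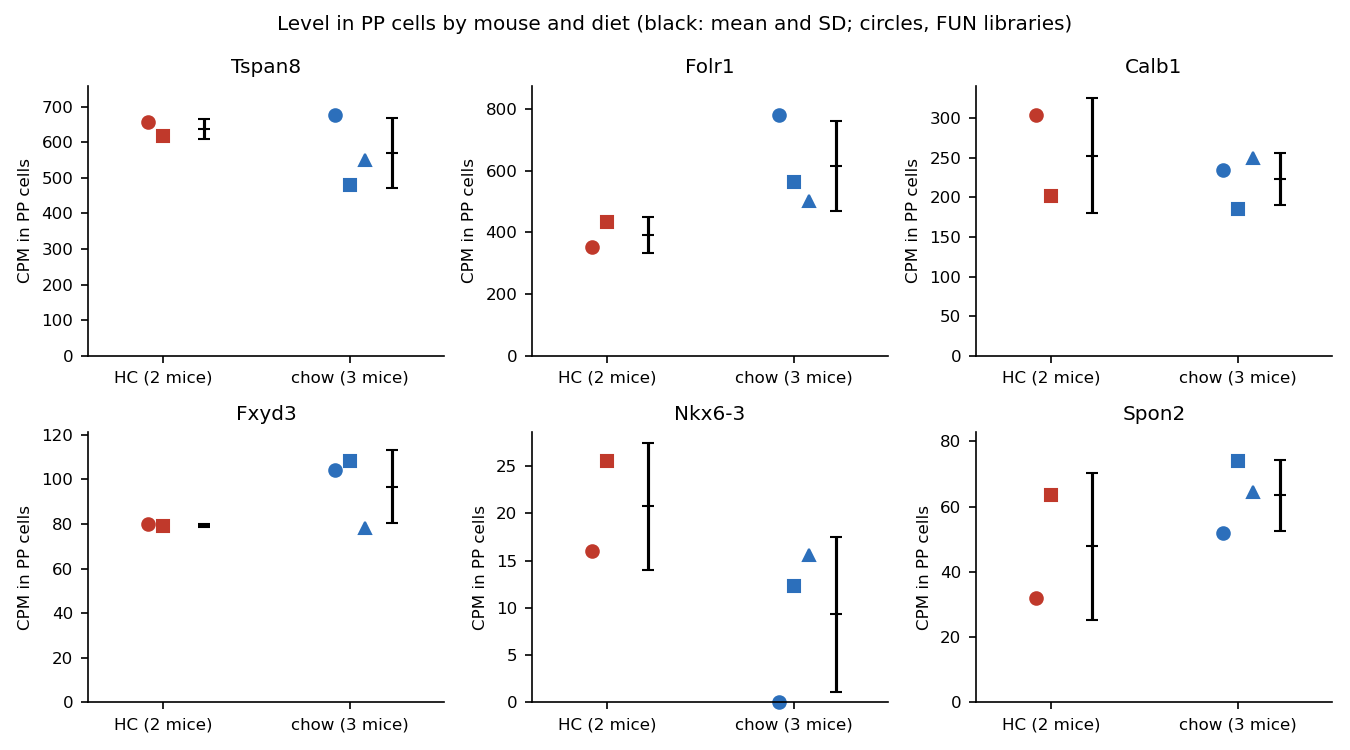
CPM of the 6 genes in PP cells, with 1 point per mouse, HC mice in red and chow mice in blue, circles for FUN libraries, and the mean and SD of each diet in black. HC and chow mice overlap for Tspan8, Calb1, Fxyd3 and Spon2, and for Folr1 the 2 HC mice (352 and 433 CPM) lie below the 3 chow mice (503 to 780.5 CPM). For Nkx6-3 both HC mice (16.0 and 25.5 CPM) lie above the chow mice (0 to 15.6 CPM), on few UMIs.

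Of the 5 genes tested in PP cells, Folr1 had the largest fitted diet difference in the main model, with all mice, the hormone gate and no term but diet. Both HC mice, at 352 and 433 CPM, lay below the chow mice, at 780.5, 563 and 503 CPM, with a log2 difference of -0.61 ± 0.28 (SE; unadjusted p = 0.0323, edgeR quasi-likelihood adjusted p = 0.998). The diets did not overlap for 2 of the 6 genes in PP cells, Folr1 and the untested Nkx6-3, against 17% of the 3877 genes tested. The value was -1.15 within the FUN libraries, where each mouse had 10 or fewer PP cells, and -0.30 within the SKY libraries, and it ran from -1.20 without HC mouse 2 to -0.33 without HC mouse 1. In delta cells Folr1 had 231 and 202 CPM in HC mice and 186, 194 and 215 CPM in chow mice, which overlap (log2 difference 0.12 ± 0.14).

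Tspan8 in PP cells averaged 636 ± 27.5 CPM in HC mice and 570 ± 98.9 CPM in chow mice, a log2 difference of 0.07 ± 0.27 (SE). Calb1 averaged 253 ± 72.5 CPM in HC mice and 223 ± 33.3 CPM in chow mice, with a fitted log2 difference of -0.13 ± 0.27, the means and the depth-weighted fit differing in sign. Fxyd3 averaged 79.5 ± 0.67 CPM in HC mice and 96.7 ± 16.3 CPM in chow mice (-0.40 ± 0.32). Spon2 averaged 47.9 ± 22.4 CPM in HC mice and 63.5 ± 10.96 CPM in chow mice (-0.38 ± 0.36). Its log2 difference was -1.70 without HC mouse 2 and -1.69 with that mouse as chow, beyond those of Folr1 under the same settings (-1.20 and -1.13). It was also larger in size than that of Folr1 with other hormones held below 20% of the leading one (-0.59 against -0.41). The same held with age as a term (0.39 against -0.31). In the main model the edgeR quasi-likelihood adjusted p was 0.998 for Tspan8, Calb1, Fxyd3 and Spon2, and the 2 diets overlapped in each. Nkx6-3 averaged 20.7 ± 6.71 CPM in HC mice and 9.3 ± 8.22 CPM in chow mice on 11 and 27 UMIs, and the 0 of chow mouse 1 is compatible with a level above that of every other mouse.

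In delta cells 4 of the 6 genes were tested and 0 called, against 2 of 8993 genes (0.0222%), the heat-shock genes Hspa1b and Hspa1a, both lower in HC mice. Tspan8 had 249 and 187 CPM in delta cells of HC mice and 193, 186 and 172 CPM in those of chow mice (log2 difference 0.24 ± 0.14). Fxyd3 had 28.8 and 35.7 CPM in HC mice and 25.8, 49.6 and 59.8 CPM in chow mice (-0.47 ± 0.32), and Calb1 98.7 ± 29.0 CPM in HC mice and 91.4 ± 19.1 CPM in chow mice (0.08 ± 0.20). In duct cells Fxyd3 and Tspan8 were tested and 0 called, against 0 of 5755 genes (0%), with 160 genes at an unadjusted p under 0.05 and 0 called by DESeq2. Fxyd3 had 189 CPM in duct cells of HC mouse 1 and 187 CPM in those of chow mouse 1, both FUN, and 494 to 572 CPM in the 3 SKY mice (log2 difference of HC over chow -0.02 ± 0.49). Insulin transcripts made up 31.7% of the UMIs in duct cells of HC mouse 1 and 21.6% in those of chow mouse 1, against 2.46 to 14.6% in the SKY mice, and their part in the lower Fxyd3 level was not tested.

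In alpha cells 5 of the 6 genes were tested and 0 called, against 5 of 10924 genes (0.0458%): Cdkn1a, Serpine2, Phlda3, Spc25 and Ly6e, all lower in HC mice. In beta cells 5 were tested and 0 called, against 1 of 12245 genes (0.00817%), C1rl, which was higher in HC mice. HC and chow mice overlapped for all 6 genes in alpha, beta, delta and duct cells, where 23.8%, 7.91%, 16.6% and 11.1% of the genes tested did not overlap. Whether the diet effect differed between PP and alpha cells was tested as an interaction with the mouse as a block, and 0 of 10035 genes (0%), including all 6 genes, were called, with 361 at an unadjusted p under 0.05.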

How the data were processed

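The deposited matrices hold raw UMI counts per gene and barcode from 3 prime v3 droplet libraries. They were made with Cell Ranger 4.0.0 on mm10, per the submitters' processing notes; cell-calling settings and annotation release are not given in the sources used here. Symbols matched 32158 of 32285 gene IDs. The genes, lists and tests were chosen with earlier results of these data known.

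Barcodes with at least 1000 UMIs, 500 genes and at most 15% mitochondrial UMIs were kept, Scrublet in scanpy 1.11.5 (expected rate 6%) was run per mouse, and cells were clustered by the Leiden method (igraph 0.11.9, 2000 variable genes without the 6 genes, 30 components, 15 neighbours, resolution 1, 19 clusters). Clusters were named from fixed markers where these sufficed, and 20 cells in the clusters held out of the gate that met the PP gate were left out. The hormone gate is given above.

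UMIs were summed per mouse and type. CPM is a gene's share of that sum, scaled to 1000000. Diet was tested with edgeR 4.0.16 in R 4.3.3 (TMM, filterByExpr, robust quasi-likelihood, two-sided, adjusted p under 0.05), with DESeq2 1.42.0 as an alternative. The edgeR test was also run on simulated data, and DESeq2 was not. Totals of PP cells ran from 38439 to 1055909 UMIs per mouse. Intervals are exact binomial and cover counting error only.

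Genes were named by rule: the 6 genes, the 2 most alike to each, the 10 largest PP over alpha differences, listed family genes at 20 CPM and genes called for diet. Likeness used every sum of at least 20 cells, since types with 20 cells in every mouse would leave out PP cells. The text also names listed genes below that level and markers in clusters, chosen after their values were seen. Some listed genes are not reported here.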

Additional observations from a re-analysis of the deposited data

How the results depend on the processing

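Averaged over mice, the PP over alpha difference kept its direction for every gene and alternative run but Spon2 with Leiden clusters (-0.054). With those clusters the PP set was the whole, mixed Ppy-led cluster. Calb1 was lower in it than in the alpha-like clusters in HC mouse 1 (-0.33) and chow mouse 1 (-0.96). Leiden clusters gave 2.45 for Tspan8, 1.66 for Folr1, 0.18 for Calb1 and 2.75 for Fxyd3. The stricter hormone gate gave 4.99 for Tspan8, 5.00 for Fxyd3 and 0.29 for Spon2. Requiring gate and cluster together, chosen after seeing the data, gave 5.05, 5.12 and 0.29. Both Spon2 values of 0.29 rest on 0 UMIs in the PP cells of HC mouse 1, and the other 4 mice lay at 1.13 to 1.76 and 1.27 to 1.79. Hormone UMIs left out of the total gave 4.67 for Fxyd3. Leaving out 1 mouse gave 4.33 to 4.60 for Tspan8, 3.27 to 3.55 for Folr1, 1.66 to 1.86 for Calb1, 4.11 to 4.36 for Fxyd3, 2.37 to 3.42 for Nkx6-3 and 1.08 to 1.35 for Spon2. The cause of these moves was not tested.

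Genes called for diet in PP cells numbered 0, but 2 with age as a term, 4 with HC mouse 2 as chow, and 3 without both FUN mice (chosen after seeing the data); leaving out 1 mouse gave 0 each time. In alpha cells they numbered 5, with 2 by DESeq2, 41 without a filter on low counts, 1 with age, 1 with the stricter cell filter and 0 to 6 without 1 mouse. In beta cells they numbered 1, with 10 by DESeq2, 40 without a filter, 8 with prefix, 10 with age, 6 by title, 2 without high doublet scores and 0 to 9 without 1 mouse. In delta cells they numbered 2, with 0 by DESeq2, 0 with age, 1 by title, 0 with the stricter cell filter and 0 to 6 without 1 mouse. In duct cells they numbered 0, with 2 without a filter, 11 with prefix, 28 with age, 6 by title and 0 to 10 without 1 mouse. The interaction gave 0, and 0 to 1 without 1 mouse. Of the 6 genes, 5 in PP, 4 in delta and 2 in duct cells were tested in the main setting, and none of these passed under these alternatives.

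Log2 differences of HC over chow changed sign for Tspan8 in PP cells by title (-0.32) and with Leiden clusters (-0.52), with -0.23 to 0.26 without 1 mouse. Calb1 in PP cells turned with the stricter hormone gate (0.0055), with -0.26 to 0.23 without 1 mouse, and Spon2 with age (0.39), with -1.70 to -0.17 without 1 mouse and -1.69 by title. In delta cells Fxyd3 turned with age (0.060), and Calb1 ran from -0.20 to 0.34 without 1 mouse. Fxyd3 in duct cells turned with prefix (0.14), age (0.71) and without high doublet scores (0.0040), with -0.66 to 0.37 without 1 mouse. Folr1 in PP cells stayed between -1.20 and -0.31. The PP share difference stayed negative, between -2.46 and -0.753 points.

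No paired analysis was possible because no label pairs an HC mouse with a chow mouse: their replicate numbers follow accession order. Cell types were paired within a mouse, and prefix was tried as a term. The main limits are few PP cells in the FUN mice (10 and 8), 2 HC mice, ages that follow prefix and diet, and undetected doublets.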
